A study of Mus musculus with 2 samples.

Results

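Barcodes that held both T cell and macrophage RNA made up 1241 of the 18460 cell barcodes of this series. They were chosen on raw counts of unique molecular identifiers (UMIs, one per captured RNA molecule). A barcode needed at least 2 UMIs summed over the T cell genes Cd3d, Cd3e, Cd3g and Trac, and at least 5 UMIs summed over the macrophage genes C1qa, C1qb and C1qc. These 7 genes chose the barcodes, so their levels are given only as a description. The shares of barcodes given below count barcodes past these cutoffs, so the shares depend on the levels of the 7 genes. Barcodes with both RNAs are set against 648 T cell barcodes without C1q, which had at least 2 T cell UMIs and no C1q UMI. They are also set against 7230 macrophage barcodes without T cell UMIs, which had at least 5 C1q UMIs.

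The CD3 chains encoded by Cd3d, Cd3e and Cd3g carry the signal of the T cell receptor, whose alpha chain constant region is encoded by Trac. C1qa, C1qb and C1qc encode the chains of complement C1q, which tumour macrophages make in large amounts. T cells read peptides that macrophages and dendritic cells display, CD8 T cells on MHC class I and CD4 T cells on MHC class II. T cells that meet their antigen release interferon gamma, which raises MHC class II and chemokines such as Cxcl9 in macrophages. In droplet sequencing a barcode can hold RNA of both cell types when both cells enter one droplet, whether attached or apart, or when free or engulfed RNA joins a cell. Which of these applied to a given barcode was not tested.

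The study measured single-cell RNA from tumours of wild-type mice bearing MC38-OVA tumours, which grow from mouse colon cancer cells that express ovalbumin as a model antigen. The sitagliptin library came from mice fed sitagliptin, which blocks the surface peptidase DPP4 (also called CD26), and the control library from mice on a control diet. Both tumour suspensions were enriched for CD45+ cells on magnetic columns and made into libraries with a droplet kit that reads RNA from the 5' end. With 1 library per diet there is no replicate error, no test was possible, and every interval below is a 95% interval that covers counting error only.

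The sitagliptin library had 9766 barcodes and 76788699 UMIs, and the control library 8694 barcodes and 64139749 UMIs. The lowest total was 2001 UMIs in both. The 2 libraries shared 132 barcode sequences. Of these, 10 held both RNAs in the sitagliptin library and 9 in the control library, and 0 did so in both. Ptprc, the gene for CD45, had a UMI in 98.3% of the sitagliptin barcodes with both RNAs and in 98.9% of the control ones. Genes outside the rule are given to describe the label. Macrophage barcodes were chosen for no T cell UMI and T cell barcodes for no C1q UMI. Low values of the other cell's RNA in those sets thus follow in part from that choice. Barcodes with both RNAs held medians of 11 and 10 UMIs of the 16 T cell reference genes (such as Cd2, Skap1 and Themis) in the sitagliptin and control libraries, against 0 in macrophage barcodes of either. They held medians of 111 and 96 UMIs of the 13 macrophage reference genes (such as Csf1r, Apoe and Ms4a7), against 2 in T cell barcodes of either.

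Barcodes without CD45 gave a measure of the RNA of both kinds outside immune cells. Among barcodes with at least 10000 UMIs and no Ptprc UMI, 4.96% of 524 in the sitagliptin library and 1.64% of 794 in the control library reached 5 C1q UMIs. In the same barcodes 0.382% reached 2 T cell UMIs under sitagliptin and 0% in the control library. Both conditions were met by 0 of 524 and 0 of 794, which allows shares of up to 0.573% and 0.378%. These barcodes had medians of 20827.5 UMIs in the sitagliptin library and 17216 UMIs in the control library. They were chosen for having no Ptprc UMI, and stray RNA of immune cells can include Ptprc. The shares above can thus understate the background. Markers of other cells were sparse in barcodes with both RNAs. The 8 NK cell genes summed to 38 and 53.6 CPM (UMIs of a gene per 1000000 UMIs) in the sitagliptin and control libraries, against 174 and 206 CPM in the T cell barcodes. The 7 conventional dendritic cell genes summed to 33.5 and 41.3 CPM, against 142 and 117 CPM in the T cell barcodes and 24.4 and 28.2 CPM in the macrophage barcodes. The 6 neutrophil genes summed to 24.6 and 55.0 CPM with Ly6g at 0, and the 6 B and plasma cell genes to 14.7 and 2.85 CPM. The 10 epithelial and stromal genes summed to 54.0 CPM in the sitagliptin library and 75.2 CPM in the control library, and the 4 mast cell and basophil genes to 0.524 and 0.299 CPM. No UMI of the 4 haemoglobin genes was counted. The 4 plasmacytoid dendritic cell genes summed to 365 and 404 CPM, of which Bst2, also an interferon response gene, held 354 and 401 CPM.

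Barcodes with both RNAs took a smaller share of the sitagliptin library. They numbered 597 of 9766 barcodes under sitagliptin (6.11%, interval 5.65 to 6.61) and 644 of 8694 in the control library (7.41%, 6.87 to 7.98), a ratio of 0.825 (0.741 to 0.919). With looser thresholds of 1 T cell and 2 C1q UMIs the ratio was 0.986, with an interval that included 1 (0.916 to 1.06). Both comparison sets took a larger share of the sitagliptin library. T cell barcodes without C1q made up 3.99% of the sitagliptin library and 2.97% of the control library, a ratio of 1.35 (1.15 to 1.57). Macrophage barcodes without T cell UMIs made up 40.8% and 37.3%, a ratio of 1.09 (1.05 to 1.13).

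A smaller share of T cell barcodes reached 5 C1q UMIs in the sitagliptin library. Of all barcodes with at least 2 T cell UMIs, 49.8% held at least 5 C1q UMIs under sitagliptin (597 of 1198, 47.0 to 52.7), against 61.9% in the control library (644 of 1041, 58.8 to 64.8). Among barcodes with fewer than 2 T cell UMIs, the share with at least 5 C1q UMIs was 51.2% under sitagliptin and 47.2% in the control library. Seen from the other side, 12% of barcodes with at least 5 C1q UMIs also held T cell RNA under sitagliptin and 15.1% did so in the control library, a ratio of 0.790 (0.713 to 0.877). Among barcodes with fewer than 5 C1q UMIs, 12.6% held at least 2 T cell UMIs under sitagliptin, against 8.94% in the control library. The genes of the cutoffs also differed in level by diet. The C1q genes summed to 0.809 times (0.804 to 0.815) the control CPM in macrophage barcodes without T cell UMIs. The 4 T cell genes of the rule ranged from 0.777 to 1.37 times in barcodes with both RNAs. What these levels did to the shares was not tested.

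T cell barcodes ranged widely in C1q UMIs in both libraries. No C1q UMI was found in 32.6% of T cell barcodes under sitagliptin and in 24.8% in the control library. Only 17.6% and 13.4% had 1 to 4 C1q UMIs, mostly a single one. At least 80 C1q UMIs were counted in 16.2% under sitagliptin and in 16.8% in the control library. Between 20 and 39 C1q UMIs were counted in 7.60% under sitagliptin and 12.2% in the control library, and 40 to 79 in 12.5% and 17.4%.

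**Figure D1:**
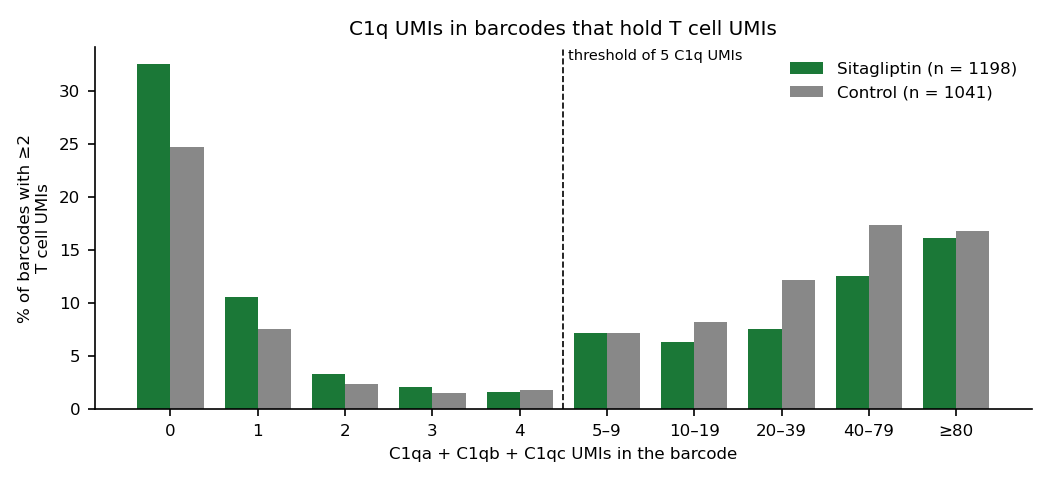
C1q UMIs (C1qa, C1qb and C1qc together, x axis) in barcodes with at least 2 T cell UMIs, as a percent of these barcodes in each library (y axis); the dashed line marks the threshold of the rule. The bins widen to the right; no C1q UMI was found in 32.6% under sitagliptin and 24.8% in the control library, and at least 80 in 16.2% and 16.8%.

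The T cell side of the rule cut through a continuous range. Barcodes just inside, with 2 T cell UMIs and at least 5 C1q UMIs, numbered 125 under sitagliptin and 131 in the control library, and held a median of 4 UMIs of the T cell reference genes in both. Those just outside, with 1 T cell UMI, numbered 405 and 365 and held a median of 1. On the C1q side, barcodes just inside had 5 to 9 C1q UMIs and medians of 26 and 25 macrophage reference UMIs. Those just outside, with 1 to 4 C1q UMIs, had medians of 9 and 16. Across all barcodes with both RNAs, T cell genes took a median of 8.62% of the reference UMIs under sitagliptin (5th to 95th percentile 1.78 to 26.3) and 9.39% in the control library (1.97 to 26.7). There were 21 barcodes under sitagliptin and 17 in the control library with no UMI of any T cell reference gene.

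A barcode with both RNAs held about as much RNA as a T cell barcode and a macrophage barcode added together. Its median was 12214 UMIs under sitagliptin (quartiles 7890 and 16562) and 10163 UMIs in the control library (6742 and 13378). T cell barcodes without C1q had medians of 3688.5 and 3772.5 UMIs, and macrophage barcodes without T cell UMIs 7050.5 and 5720.5 UMIs, so the sum of the medians was 10739 UMIs under sitagliptin and 9493 UMIs in the control library. The means were 12785 and 10370 UMIs, against 12925 and 11533 UMIs for the sum of the comparison means. Barcodes with both RNAs also held more genes, with medians of 3483 and 3207, against 1587 and 1659 in T cell barcodes and 2320.5 and 2116 in macrophage barcodes.

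The absolute amount of T cell RNA in these barcodes was close to that of a T cell barcode, while macrophage RNA exceeded that of a macrophage barcode. The rule itself bears on both amounts. It asks for at least 2 T cell UMIs in both T cell sets and for 0 in macrophage barcodes, and asking for both RNAs can favour deeper barcodes. The T cell reference genes gave a median of 11 UMIs per barcode with both RNAs under sitagliptin and 10 in the control library, against 12 and 11 in T cell barcodes without C1q and 0 in macrophage barcodes without T cell UMIs. Their means were 0.962 times the T cell barcode mean under sitagliptin and 0.923 times in the control library. The macrophage reference genes gave medians of 111 and 96 UMIs, against 77 and 68 in macrophage barcodes and 2 in T cell barcodes of either library. In 39.9% of the sitagliptin barcodes with both RNAs and 39.8% of the control ones, both reference sums were at or above the median of their own comparison set.

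**Figure D2:**
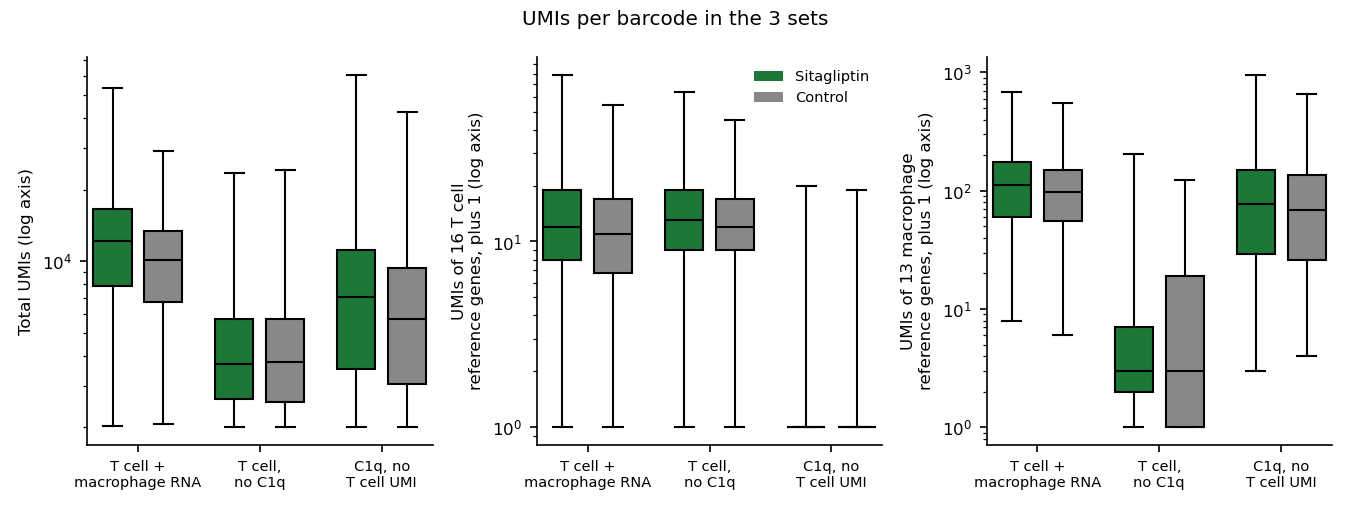
UMIs per barcode on log axes for all genes (left), the 16 T cell reference genes (middle) and the 13 macrophage reference genes (right) in barcodes with both RNAs and in both comparison sets; boxes give the median and quartiles and whiskers the lowest and highest barcode. Barcodes with both RNAs match T cell barcodes in T cell UMIs (medians 11 and 10, against 12 and 11) and exceed macrophage barcodes in macrophage UMIs (111 and 96, against 77 and 68).

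Scores of a doublet finder and RNA quality measures also differed between the sets. The median doublet score was 0.121 under sitagliptin and 0.111 in the control library, against 0.0357 and 0.0493 in T cell barcodes and 0.0708 and 0.0670 in macrophage barcodes. The 6% of barcodes with the highest scores included 14.2% of the barcodes with both RNAs under sitagliptin and 12.9% in the control library. Their median mitochondrial share was 0.588% under sitagliptin and 0.567% in the control library. Ribosomal protein genes took 11.3% and 11.6%, between the T cell barcodes (14.3% in both libraries) and the macrophage barcodes (9.55% and 9.97%).

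For each library a summed profile was made by adding the mean T cell barcode without C1q to the mean macrophage barcode without T cell UMIs, and the level of each gene in barcodes with both RNAs, as CPM, was divided by it. This comparison was added after the data had been seen. Nearly all genes lay close to the sum. Of 5925 genes with enough UMIs, 98.9% under sitagliptin and 98.8% in the control library were within 1.5-fold of it, and the median log2 ratio was 0.03 and 0.01. At any fold, 38.4% of these genes were above the sum in both libraries and 30.2% below it in both, and the counts of list members given further on are to be read beside these shares. Across genes, which are not independent, the log2 levels of barcodes and sum had a Pearson correlation of 0.991 under sitagliptin and 0.990 in the control library; both contain the same kinds of cells by construction. At least 1.5-fold above the sum in both libraries were 11 genes (0.186% of genes), and at least 1.5-fold below it were 18 (0.304%). In the sitagliptin library alone 0.506% of genes were that far above and 0.608% that far below, and in the control library alone 0.304% and 0.878%. The counts in both libraries were 40 and 40 when the T cell barcodes were limited to those with under 0.1% of their UMIs in macrophage reference genes.

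**Figure D3:**
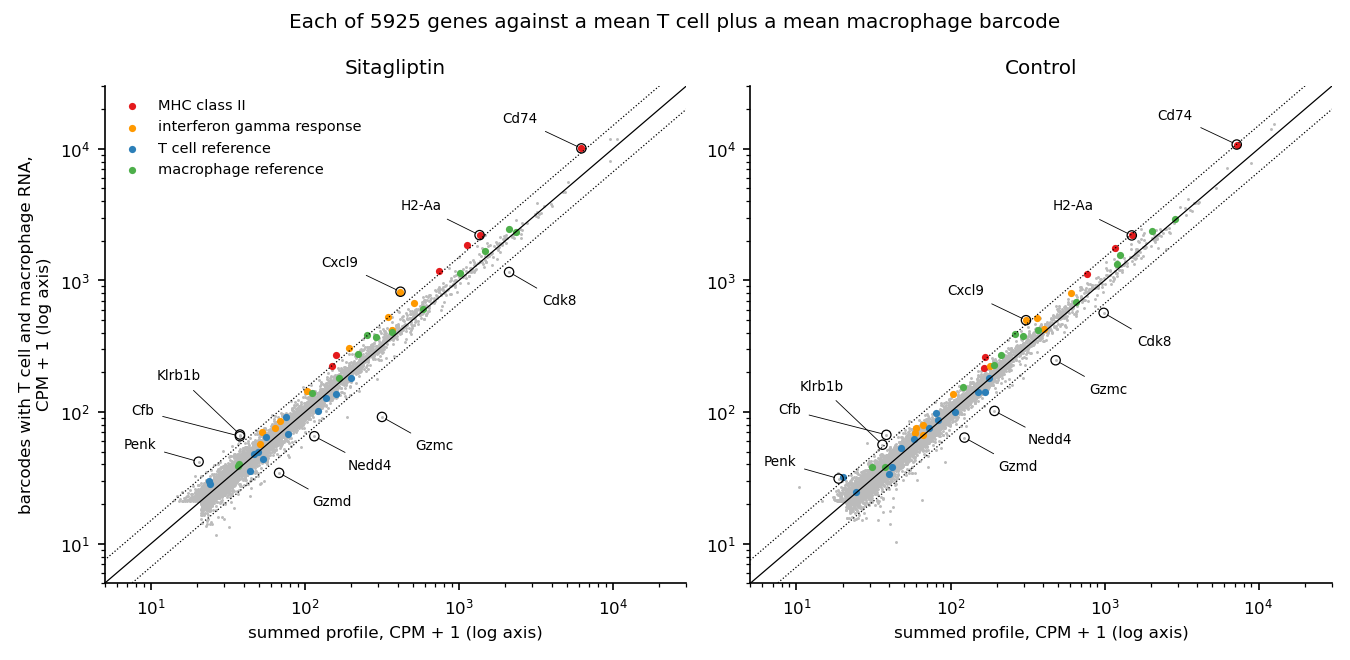
Level of each of 5925 genes in barcodes with both RNAs (y axis, CPM + 1, log) against the sum of a mean T cell barcode and a mean macrophage barcode (x axis, CPM + 1, log), under sitagliptin (left) and in the control library (right); the solid line marks equality and dotted lines 1.5-fold. MHC class II genes and Cxcl9 lie above equality in both libraries, and Gzmc, Gzmd, Cdk8 and Nedd4 lie below it.

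T cell identity genes followed the sum. Of the 13 T cell reference genes with enough UMIs, 5 were above the sum in both libraries and 5 below, and none was 1.5-fold away in both. Skap1, an adaptor that links the receptor to integrins, was lower than the sum at 0.86 times in both libraries (0.79 to 0.94 and 0.77 to 0.95). Cd2, which binds CD48 on partner cells, was higher at 1.21 (1.07 to 1.37) and 1.23 times (1.06 to 1.43). Cd5, an inhibitory receptor whose level follows the strength of receptor signals, was at 1.28 (1.02 to 1.6) and 1.64 times (1.23 to 2.19).

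Measured per CPM, T cell genes were of necessity lower in barcodes with both RNAs than in T cell barcodes, because macrophage RNA shares the total. All 15 T cell reference genes that could be read were lower in both libraries, 14 of them past 1.5-fold, among 10.2% of 6160 genes that lay that far below T cell barcodes. Cd3e, a gene of the rule, had 141 CPM in barcodes with both RNAs and 389 CPM in T cell barcodes under sitagliptin, and 103 and 235 CPM in the control library. Trac had 54.1 and 151 CPM under sitagliptin, and 64.2 and 139 CPM in the control library. The rule sets both genes to 0 in macrophage barcodes.

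CD8 was the main coreceptor in barcodes with both RNAs, as in the T cell barcodes. A UMI of Cd8a or Cd8b1 and none of Cd4 was found in 58.5% of barcodes with both RNAs under sitagliptin and 61.5% in the control library, against 67.7% and 64.0% of T cell barcodes. The same held in 4.11% and 4.35% of macrophage barcodes without T cell UMIs, a measure of the background. Those macrophage barcodes were chosen for having no T cell UMI, so this can understate the background. Cd4 alone was found in 8.88% (53 barcodes, 6.72 to 11.5) and 9.16% (59 barcodes, 7.05 to 11.7), against 5.13% (3.16 to 7.81) and 6.98% (4.19 to 10.8) of T cell barcodes and 0.527% and 0.617% of macrophage barcodes. The intervals of barcodes with both RNAs and T cell barcodes overlapped in each library. Cd4 RNA stood at 16.8 and 23.5 CPM, 2.21 (1.56 to 3.14) and 2.12 times (1.47 to 3.06) the summed profile, whereas Cd8a at 138 and 155 CPM stood at 1.08 and 1.0 times.

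A rearranged beta chain V segment (Trbv), counted at 2 or more UMIs, marks a receptor. Exactly 1 Trbv segment was seen in 36.2% of barcodes with both RNAs under sitagliptin and 33.2% in the control library, close to 38.2% and 35.7% of T cell barcodes, and in 0.151% and 0.154% of macrophage barcodes. At least 2 segments were seen in 24 barcodes (4.02%, 2.59 to 5.92) under sitagliptin and 21 barcodes (3.26%, 2.03 to 4.94) in the control library. T cell barcodes had 7 such barcodes in each library (1.79%, 0.725 to 3.66, and 2.71%, 1.10 to 5.51). Here too the intervals of both sets overlapped.

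Each barcode was also thinned to 2000 UMIs, so that total depth was equal. Cd8a was then detected in 19.6% and 22.7% of barcodes with both RNAs and in 41.5% and 46.5% of T cell barcodes. In macrophage barcodes it was detected in 1.78% and 1.66%. Thinning does not make the amount of T cell RNA equal, because macrophage RNA shares the total in barcodes with both RNAs. In the summed profile described above, T cell barcodes gave 36.9% of the UMIs under sitagliptin and 40.3% in the control library. Dpp4, the target of sitagliptin and a T cell surface peptidase, followed the T cell side. It had 19.9 CPM in barcodes with both RNAs under sitagliptin and 18.6 CPM in the control library, against 65.5 and 41.7 CPM in T cell barcodes and 3.63 and 4.30 CPM in macrophage barcodes. Its ratio of sitagliptin over control was 1.07 (0.840 to 1.37) in barcodes with both RNAs and 1.57 in T cell barcodes.

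Genes of T cell killing mostly lay below the sum. Of 14 cytotoxic genes with enough UMIs, 10 were below the summed profile in both libraries and 1 above, and Gzmc and Gzmd were past 1.5-fold. The list's median log2 ratio was -0.15 under sitagliptin and -0.45 in the control library, against 0.03 and 0.01 over all genes. Summed, the 17 listed genes stood at 0.856 and 0.870 times the sum, and at 1.06 and 0.951 times when the rule was applied to counts thinned to 2000 UMIs. Gzmc, a granzyme of strongly activated killer cells in mice, had 90.9 CPM in barcodes with both RNAs and 751 CPM in T cell barcodes under sitagliptin, and 247 and 989 CPM in the control library. It stood at 0.29 (0.26 to 0.31) and 0.51 times (0.48 to 0.55) the sum. One barcode held 22.0% of the Gzmc UMIs under sitagliptin and one held 8.93% in the control library. Gzmd, at 0.50 and 0.52 times the sum, has near-identical neighbours in Gzme, Gzmf and Gzmg, so its reads may be divided among them.

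The more widely used killing genes lay nearer to the sum. Gzmb, which cuts caspases in target cells, had 639 and 1143 CPM in barcodes with both RNAs, against 2059 and 2850 CPM in T cell barcodes, and stood at 0.82 and 0.96 times the sum. Nkg7, a protein of cytotoxic granules, stood at 0.88 and 0.87 times. Ccl5, a chemokine that recruits T cells and macrophages, was the 1 cytotoxic gene above the sum in both libraries, at 1.19 (1.14 to 1.25) and 1.30 times (1.24 to 1.36). Ifng, the gene of interferon gamma, had 32.0 and 35.5 CPM, 0.93 (0.76 to 1.12) and 1.08 times (0.86 to 1.37) the sum.

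Genes of naive and memory T cells also lay below the sum, and 6 of 7 read genes were lower in both libraries, with medians of -0.38 and -0.13. Ccr7, which guides T cells to lymph nodes, stood at 0.77 (0.64 to 0.92) and 0.97 times (0.78 to 1.20). The inhibitory receptors gave no common direction, with 4 of 11 above the sum in both libraries and 4 below. Pdcd1, which encodes PD-1, was at 1.22 (1.04 to 1.43) and 1.28 times (1.08 to 1.52), and Ctla4 at 1.13 and 0.95 times. Of 5 regulatory T cell genes, 3 were above and 2 below. Tnfrsf4, the costimulatory receptor OX40, was above at 1.22 and 1.39 times, and Ikzf2, the transcription factor Helios, was below at 0.72 times in both libraries.

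The coreceptor found in a barcode went with the T cell genes it held. This split was made after the data had been seen. Barcodes with both RNAs and Cd4 alone (53 under sitagliptin, 59 in the control library) were set against those with Cd8a or Cd8b1 alone (349 and 396). Tnfrsf4 had 173 CPM in the CD4 group and 45.1 CPM in the CD8 group under sitagliptin, and 204 and 53.6 CPM in the control library. Nkg7 was lower with CD4, at 103 CPM against 593 CPM under sitagliptin, and 171 CPM against 706 CPM in the control library. Il2ra, the interleukin 2 receptor alpha chain, was 2.47 and 3.4 times higher with CD4, and Ccr8, a receptor of tumour regulatory T cells, 2.65 and 5.62 times. Foxp3, the defining factor of regulatory T cells, had 8 and 6 UMIs with CD4 and 11 and 5 with CD8, which, with fewer barcodes and summed UMIs in the CD4 group, gave CPM ratios of 4.33 (1.51 to 11.8) and 6.97 (1.77 to 28.9).

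The macrophage reference genes summed to 10806 CPM in the CD4 group and 9976 CPM in the CD8 group under sitagliptin, and to 10543 and 10754 CPM in the control library. H2-Aa, an MHC class II chain, had opposite ratios of CD4 over CD8, 0.81 (0.76 to 0.85) under sitagliptin and 1.28 (1.22 to 1.35) in the control library. Cxcl9 was higher in the CD4 group in both, at 1.14 and 1.30 times.

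Macrophage identity genes were all present and all slightly above the sum. Each of the 13 macrophage reference genes was above the summed profile in both libraries, none past 1.5-fold in both, with median log2 ratios of 0.17 and 0.25. Lyz2, the gene of lysozyme, was at 1.0 and 1.01 times the sum, with 2350 CPM in barcodes with both RNAs and 3398 CPM in macrophage barcodes under sitagliptin, and 2914 and 4313 CPM in the control library. Aif1, an actin-binding protein of macrophages, was highest in the list at 1.52 (1.46 to 1.59) and 1.49 times (1.42 to 1.57). Csf1r, the receptor for the macrophage growth factor CSF1, had 372 and 376 CPM, 1.29 and 1.27 times the sum. Apoe, a lipid carrier and one of the markers of these barcodes, had 1664 CPM under sitagliptin and 1568 CPM in the control library, against 2258 and 2009 CPM in macrophage barcodes and 156 and 135 CPM in T cell barcodes. Set directly against macrophage barcodes, 12 of the 13 genes were lower per CPM in both libraries, none past 1.5-fold, where 1.4% of 5909 genes were lower and 5.28% higher by that much. T cell RNA shares the total in barcodes with both RNAs, which lowers macrophage genes per CPM.

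Programmes of particular macrophages divided around the sum. Of 12 lipid-associated macrophage genes, 5 were above the sum in both libraries and 4 below. Spp1, the secreted protein osteopontin, had 1309 and 1757 CPM in barcodes with both RNAs, against 2302 and 3208 CPM in macrophage barcodes, and stood at 0.80 and 0.79 times the sum. Arg1, which degrades arginine, was at 0.83 and 0.87 times. Against macrophage barcodes alone, all 13 lipid-associated genes and all 9 resident-like genes that could be read were lower per CPM in both libraries. Past 1.5-fold were 4 and 6 of them. Over all 5909 genes the median log2 ratio to macrophage barcodes was 0.07 under sitagliptin and 0.03 in the control library. The share of all genes lower at any fold was not counted. T cell RNA shares the total here, and the summed macrophage reference genes were themselves at 0.781 and 0.769 times. Per 100 macrophage reference UMIs the lipid-associated genes had 54.8 against 64.9 UMIs under sitagliptin and 62.8 against 72.2 in the control library. The resident-like genes had 17.2 against 21.4 and 16.1 against 18.4. Of 7 resident-like genes read against the sum, 2 were above in both libraries and 2 below, and of 6 alternative activation genes 3 and 2. Monocyte genes gave 6 of 7 below the sum in both libraries and none above. They summed to 668 and 695 CPM in barcodes with both RNAs, above macrophage barcodes (569 and 541 CPM) but below T cell barcodes (1343 and 1205 CPM). Vcan, a matrix proteoglycan of monocytes, was past 1.5-fold below the sum at 0.65 and 0.60 times. It too was higher in T cell barcodes (53.7 and 63.4 CPM) than in macrophage barcodes (41.3 and 50.3 CPM). Ly6c2, which activated CD8 T cells also express, stood at 0.65 and 0.79 times the sum.

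Inflammatory and clearance genes stayed near the sum. Of 9 inflammatory genes, 5 were above in both libraries and 2 below. Il1b, the cytokine interleukin 1 beta, had 2127 and 2427 CPM, 1.16 and 1.12 times the sum. Inhba, a subunit of activin, was below it at 0.68 and 0.63 times, with 133 and 159 CPM. Of 10 genes of phagocytosis and clearance, 7 were above and none below in both libraries, and their median log2 ratios were 0.08 and 0.05. Mertk, a receptor for dying cells, was at 1.08 (0.95 to 1.23) and 1.03 times (0.89 to 1.18).

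MHC class II genes were higher than the sum as a group. All 6 that could be read were above it in both libraries, with median log2 ratios of 0.69 and 0.56, and H2-Eb1 and H2-DMb1 were past 1.5-fold in both. H2-Aa, the alpha chain that presents peptides, had 2208 CPM in barcodes with both RNAs, 817 CPM in T cell barcodes and 1680 CPM in macrophage barcodes under sitagliptin. In the control library it had 2198, 987 and 1850 CPM. It was thus higher in barcodes with both RNAs than in either comparison set, at 1.62 (1.59 to 1.65) and 1.46 times (1.43 to 1.5) the sum. Cd74, the invariant chain that guards the peptide groove, reached 10077 and 10772 CPM, 1.61 and 1.49 times the sum. H2-DMb1, which helps to load peptides, was at 1.71 (1.61 to 1.81) and 1.59 times (1.49 to 1.70).

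Summed over the list, MHC class II genes had 15854 CPM in barcodes with both RNAs under sitagliptin and 16362 CPM in the control library. That was 1.30 (1.29 to 1.31) and 1.19 times (1.19 to 1.20) the level in macrophage barcodes, although barcodes with both RNAs also hold T cell RNA. Per 100 UMIs of the macrophage reference genes they had 158 and 152 UMIs, against 94.7 and 97.8 in macrophage barcodes. The T cell barcodes without C1q had 232 and 238 on this scale, and the reason was not tested. Conventional dendritic cell genes summed to 142 and 117 CPM in them, against 24.4 and 28.2 CPM in macrophage barcodes. These T cell barcodes also held some macrophage reference RNA without C1q. Their macrophage reference genes summed to 2470 and 2948 CPM, against 10062 and 10774 CPM in barcodes with both RNAs. With each barcode thinned to 2000 UMIs, H2-Aa was detected in 78.6% and 76.6% of barcodes with both RNAs, 22.8% and 28.3% of T cell barcodes and 68.0% and 70.3% of macrophage barcodes. Its detection was thus higher with both RNAs at equal depth.

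Genes that respond to interferon gamma were higher as well. All 10 that could be read were above the sum in both libraries, with median log2 ratios of 0.41 and 0.33, and 1, Cxcl9, was past 1.5-fold in both. Cxcl9 encodes a chemokine that draws T cells carrying CXCR3. It had 820.3 CPM in barcodes with both RNAs, 175 CPM in T cell barcodes and 558 CPM in macrophage barcodes under sitagliptin, and 498, 127 and 430.3 CPM in the control library. Its ratio to the sum was 1.97 (1.91 to 2.03) and 1.62 (1.54 to 1.69). Thinned to equal depth, Cxcl9 was detected in 49.2% and 41.9% of barcodes with both RNAs, 7.69% and 8.53% of T cell barcodes and 35.3% and 34.6% of macrophage barcodes.

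Other members of the interferon gamma list had smaller ratios. Gbp2, a GTPase induced by interferons, was at 1.54 and 1.43 times the sum and Irf1 at 1.14 and 1.07 times. Cxcl10 was at 1.59 (1.51 to 1.68) under sitagliptin and 1.24 (1.16 to 1.32) in the control library. Type I interferon response genes, which overlap in regulation, were above in both libraries for 8 of 12 genes and below for 1, with medians of 0.25 and 0.23. Isg15 stood at 1.24 and 1.20 times and Irf7 at 1.36 and 1.40 times the sum.

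**Figure D4:**
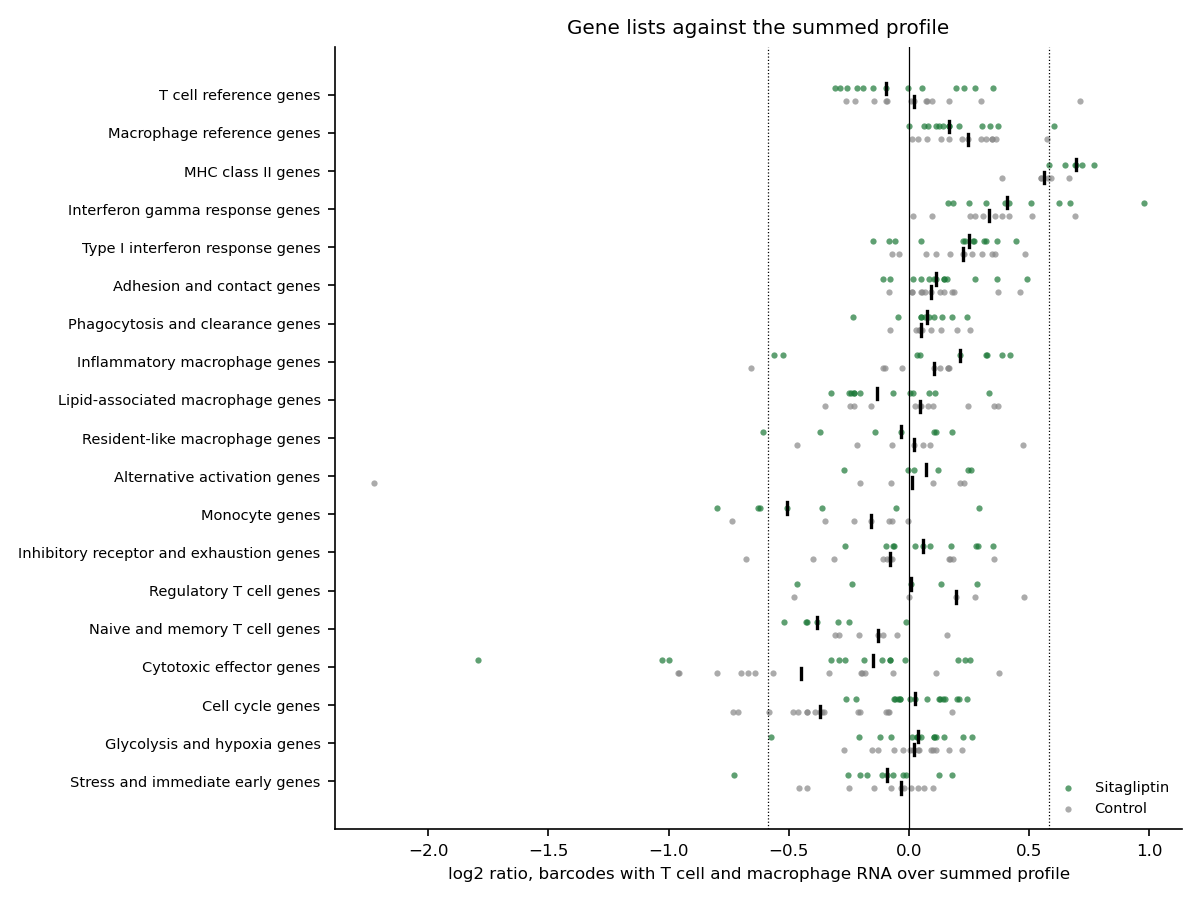
Log2 ratio of each gene in barcodes with both RNAs over the summed profile (x axis) for 19 gene lists (y axis), with sitagliptin points above control points; black bars are list medians, the solid line marks equality and dotted lines 1.5-fold. MHC class II genes have medians of 0.69 and 0.56 and interferon gamma response genes 0.41 and 0.33, while cytotoxic effector genes have -0.15 and -0.45.

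Genes by which cells hold on to each other were mostly slightly above the sum. Of 13 adhesion and contact genes, 10 were above in both libraries and none below, with medians of 0.11 and 0.09, against 0.03 and 0.01 over all genes, and none was past 1.5-fold. Cxcl16, a membrane-bound chemokine of macrophages, stood at 1.29 times in both libraries (1.22 to 1.37 and 1.22 to 1.38), and its T cell receptor Cxcr6 at 1.12 (0.96 to 1.30) and 1.38 times (1.15 to 1.66). The integrin chain Itga4 was at 1.11 times in both. Itgal, which encodes LFA-1 alpha, was at 1.04 and 1.01 times with intervals that included 1. Of 17 cell cycle genes, 7 were below the sum in both libraries and 1 above, with medians of 0.02 under sitagliptin and -0.37 in the control library. Mki67, a marker of dividing cells, stood at 0.97 (0.90 to 1.04) and 0.77 times (0.71 to 0.84). Of 15 glycolysis and hypoxia genes 9 were above the sum in both libraries and 3 below, with medians of 0.04 and 0.02, and of 11 stress and immediate early genes 2 were above and 7 below, with medians of -0.09 and -0.03.

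The 11 genes past 1.5-fold above the sum in both libraries were Cadm1, Calhm6, Cfb, Cxcl9, H2-DMb1, H2-Eb1, Klrb1b, Ly86, Penk, Slamf9 and Tnfsf13b. Penk, the precursor of enkephalin peptides, was a gene of the T cell side here. It had 41 CPM in barcodes with both RNAs, 49.96 CPM in T cell barcodes and 1.54 CPM in macrophage barcodes under sitagliptin, and 30.2, 40.9 and 2.19 CPM in the control library. This gave ratios of 2.11 (1.69 to 2.64) and 1.70 (1.27 to 2.28). Cfb, complement factor B, was at 1.75 (1.56 to 1.97) and 1.77 times (1.55 to 2.03). The 18 genes past 1.5-fold below included Sparc, Cald1 and Hmga2, picked after their values were seen, at 10.7, 28.2 and 17.8 CPM under sitagliptin and 21.1, 40.4 and 20.7 CPM in the control library.

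Few genes lay far outside the range of both comparison sets. Of 3138 genes with at least 50 UMIs and 50 CPM in barcodes with both RNAs of each library, 417 (13.3%) were above the higher set at any fold in both libraries, and 1 (0.0319%) was at least 1.5-fold above. This was Klrb1b, a lectin-like receptor gene of the NK cell gene complex, with 66.6 CPM in barcodes with both RNAs, 33.3 CPM in T cell barcodes and 39 CPM in macrophage barcodes under sitagliptin. The control library had 55.6, 34.2 and 35.8 CPM. Calhm6 fell just short of the 50 CPM needed, with 49.8 CPM in barcodes with both RNAs, 31.7 CPM in T cell barcodes and 26.2 CPM in macrophage barcodes under sitagliptin, and 56.9, 19.2 and 33.6 CPM in the control library. No gene passed with looser thresholds, without the deepest 5% of barcodes or with equal weight for each barcode. Next in rank came Cfb, Ass1 (an enzyme of arginine synthesis), Gbp6 and Irf7, between 1.37 and 1.30 times the higher set in the library where they were less so.

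Below the lower comparison set lay 112 (4.57%) of the 2452 genes with at least 50 CPM in both comparison sets, and 2 (0.0816%) by at least 1.5-fold. These were Cdk8, a kinase of the Mediator complex, and Nedd4, a ubiquitin ligase. Cdk8 had 1158 CPM in barcodes with both RNAs, 2201 CPM in T cell barcodes and 2067 CPM in macrophage barcodes under sitagliptin, and 566, 1006 and 973 CPM in the control library. Nedd4 had 64.6, 134 and 102 CPM under sitagliptin, and 101, 234 and 164 CPM in the control library. Nedd4 was at 1.24 times the lower set when the rule was applied to counts thinned to 2000 UMIs, and no gene was 1.5-fold below both sets with looser thresholds or with equal weight for each barcode. Malat1, a nuclear RNA, was also below both sets, with 8015 CPM against 9478 and 9643 CPM under sitagliptin, and 7749 CPM against 8926 and 8969 CPM in the control library.

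Within barcodes with both RNAs, few genes differed by diet. At least 1.5-fold higher under sitagliptin were 54 of 6076 genes (0.889%), and 38 were at least 1.5-fold lower (0.625%). The median log2 ratio over all 6076 genes was -0.04, so at least as many genes lay below the control level as above it. The share of genes below at any fold was not counted. Counts of list members by diet given further on are to be read with this limit. In T cell barcodes without C1q the shares were 2.19% and 3.34% of 4575 genes, and in macrophage barcodes without T cell UMIs 0.567% and 0.842% of 5822 genes. The T cell set held fewer barcodes (390 under sitagliptin and 258 in the control library), with lower means of 4773 and 4644 UMIs. Its ratios carry more counting error, so its shares cannot be compared directly with the others. Reference levels per CPM were themselves close. The T cell reference genes were at 0.946 (0.916 to 0.976) and the macrophage reference genes at 0.934 (0.924 to 0.943) times the control level. The C1q genes of the rule were at 0.890 times (0.877 to 0.903).

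Granzymes were lower under sitagliptin. Of 15 cytotoxic genes that could be read, 13 were below and 2 above the control level, 5 of them lower past 1.5-fold and 1 higher. The list's median log2 ratio was -0.38, against -0.04 over all genes. Gzmb had 639 CPM under sitagliptin and 1143 CPM in the control library, a ratio of 0.56 (0.54 to 0.58). Gzma was at 91.1 and 191 CPM (0.48, 0.43 to 0.52), and Gzmc at 90.9 and 247 CPM (0.37, 0.34 to 0.40). The same genes were lower in T cell barcodes without C1q, at 0.72, 0.72 and 0.76 times, and in macrophage barcodes, at 0.40, 0.58 and 0.44 times, so the direction was shared by all 3 sets. Gzmb RNA in the macrophage barcodes, 31.9 CPM under sitagliptin and 79.6 CPM in the control library, is one measure of the granzyme background in each library. It can understate that background, because macrophage barcodes were chosen for having no T cell UMI. The gene higher past 1.5-fold was Xcl1, a chemokine for cross-presenting dendritic cells, at 50.05 CPM under sitagliptin and 33.2 CPM in the control library (1.51, 1.27 to 1.78).

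Cxcl9 was higher under sitagliptin. It had 820.3 CPM in the sitagliptin library and 498 CPM in the control library, a ratio of 1.65 (1.58 to 1.72), against 1.38 in T cell barcodes and 1.30 in macrophage barcodes. It had a UMI in 72.2% of barcodes with both RNAs under sitagliptin and 66.0% in the control library, and the barcode with most Cxcl9 held 2.78% and 2.25% of its UMIs. Of the 10 genes of the interferon gamma list, Cxcl9 among them, 6 were above the control level and 4 below, with a median log2 ratio of 0.02. MHC class II genes were near equal, with 5 of 6 above and a median of 0.04, against -0.04 over all genes.

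Among macrophage genes, Retnla and Fcrls were higher under sitagliptin and lipid-associated genes lower. Retnla, which mouse macrophages make in response to interleukin 4, had 73.6 CPM under sitagliptin and 9.28 CPM in the control library, a ratio of 7.93 (6.09 to 10.5). It came from 8.38% of the barcodes under sitagliptin and 2.33% in the control library, and leaving out the top barcode of each gave a ratio of 8.11. In macrophage barcodes its ratio was 1.38, at 92.7 and 67.2 CPM. Fcrls, an Fc receptor-like gene of macrophages, had 54.4 CPM under sitagliptin and 20.8 CPM in the control library, a ratio of 2.61 (2.15 to 3.19), against 1.87 in macrophage barcodes. Of 13 lipid-associated genes, 12 were below the control level, none of them past 1.5-fold, and 1 above. Their median log2 ratio was -0.29, against -0.04 over all genes, and the summed macrophage reference genes were also lower, at 0.934 times. Spp1 was at 1309 CPM under sitagliptin and 1757 CPM in the control library, 0.75 times (0.73 to 0.77), and at 0.72 times in macrophage barcodes.

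Several further genes differed alike in every set of barcodes. Zbed5 had 134 CPM under sitagliptin and 0.898 CPM in the control library, with a UMI in 72.0% and 0.932% of barcodes with both RNAs. Its ratios were 149 (68.1 to 406) in barcodes with both RNAs, 105 in T cell barcodes and 115 in macrophage barcodes. Cdk8 had ratios of 2.04, 2.19 and 2.12 in the same order, Atp5k, a subunit of ATP synthase, 1.87, 2.0 and 1.95, and Polr2l, a subunit of RNA polymerases, 1.62, 1.67 and 1.71. On the lower side, Alyref, an mRNA export factor, had 0.57, 0.60 and 0.56, and Nedd4 0.64, 0.58 and 0.63. Cmss1 differed more in barcodes with both RNAs, at 1.79 (1.75 to 1.83), than in T cell barcodes, at 1.53, or macrophage barcodes, at 1.12.

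**Figure D5:**
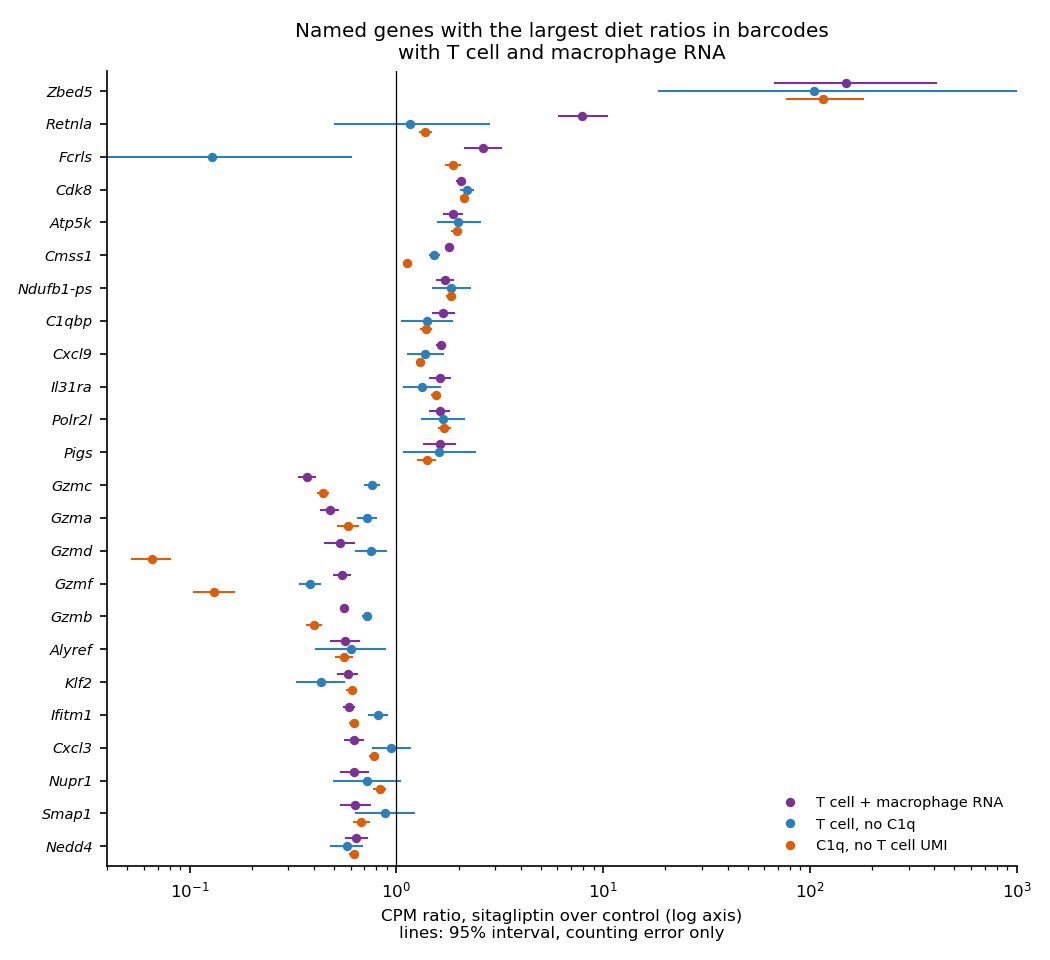
Ratio of CPM, sitagliptin over control, on a log axis for the 12 highest and 12 lowest named genes in barcodes with both RNAs, with the same genes in both comparison sets; lines are 95% intervals for counting error, and 2 in T cell barcodes run past the axis. Zbed5 and Cdk8 have similar ratios in all 3 sets, while Retnla is at 7.93 in barcodes with both RNAs and at 1.38 in macrophage barcodes.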

How the data were processed

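Single-cell RNA was measured in 2 libraries of CD45+ tumour cells, made with the SeekOne DD 5' kit per the labels' protocols. The authors deposited raw UMI counts per gene and barcode, with a lowest total of 2001 UMIs in each library. For the aligner, the genome build and the number of mice per library, nothing is given in the sources used here. No normalization had been applied to the counts.

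Barcodes were selected as described above. The members and the gene lists were chosen with earlier results of these data known. UMIs were summed over the barcodes of a set in each library and scaled to CPM. Shares have exact Clopper-Pearson intervals, ratios of shares Katz intervals, CPM exact Poisson intervals, ratios of CPM exact conditional binomial intervals, and ratios to the summed profile log-normal intervals, all at 95% and for counting error only. Depth ranged around medians of 5158.5 UMIs (sitagliptin) and 5074 UMIs (control) per barcode, which limits genes of a few CPM. Genes entered counts past 1.5-fold with at least 100 UMIs and 20 CPM, and counts outside both comparison sets with 50 CPM (and 50 UMIs for those above). The thresholds stand in for a test, since each diet has 1 library.

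Named by diet were the 12 highest and 12 lowest ratios with at least 100 UMIs and 50 CPM; against the comparison sets, the 12 most above and 12 most below both with 50 CPM; and from each list the 4 genes with most UMIs and the whole reference and coreceptor lists. Genes of mitochondria, ribosomal proteins, haemoglobin and antigen receptors, Gm and Rik models, Xist, Tsix and Y-linked genes were not ranked. Further genes in the text were chosen after their values were seen. Of the 16 type I interferon genes listed, 15 were in the files.

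Doublets were scored with Scrublet in scanpy 1.11.5, and since its automatic cutoff called 0% of barcodes, all were kept, and removal of the top 6% is an alternative. Alternatives also covered the thresholds, thinning, depth, weighting and fold. The comparison with the summed profile, that of coreceptor groups, a cleaned T cell set and the removal of shared barcodes were added after the data were seen. Scripts used scipy 1.17.1, pandas 2.3.3 and numpy 2.4.6 on Python 3.11.15 and were tested on simulated data. Trbc1 and Trbc2, and Gzmd, Gzme, Gzmf and Gzmg, are near copies whose counts are uncertain.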

Additional observations from a re-analysis of the deposited data

Results flagged for a closer look

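Atf3 and Retnla lay on opposite sides of the summed profile in the 2 libraries, with intervals that did not include 1; the difference between libraries was not tested. Atf3, a stress-induced transcription factor, stood at 0.868 (0.837 to 0.899) times the sum under sitagliptin and 1.05 (1.01 to 1.09) times in the control library. Retnla stood at 1.19 (1.08 to 1.30) times under sitagliptin and 0.214 (0.165 to 0.276) times in the control library, where 62 UMIs from 15 barcodes were counted, against 562 UMIs from 50 barcodes under sitagliptin.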

How the results depend on the processing

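No paired analysis was possible because each diet has 1 library and the labels carry no replicate numbers; leaving out a replicate was likewise not possible. The ratio of the share of barcodes with both RNAs, 0.825, was 0.986 with looser thresholds, 0.688 with the rule on counts thinned to 2000 UMIs and 0.739 among barcodes with Ptprc, and lay between 0.790 and 0.822 under the other alternatives that changed it.

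The median log2 ratio of the T cell reference genes against T cell barcodes, over all 16 genes (sitagliptin -1.45, control -1.24) was -1.53 and -1.03 with looser thresholds, -1.61 and -1.53 with equal weights, and -1.76 and -1.54 against T cell barcodes with little macrophage RNA. Under sitagliptin it was -1.21 with the thinned rule and -1.39 without the deepest 5% of barcodes. Per 100 T cell reference UMIs it was 0.0296 and 0.0293, near 0 by construction.

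The median of the macrophage reference genes against macrophage barcodes (-0.32 and -0.31) was -0.45 and -0.41 with stricter thresholds, -0.18 and -0.12 with looser ones, -0.36 and -0.35 without the top 6% of doublet scores, -0.55 and -0.33 with the thinned rule, -0.35 and -0.35 without the deepest barcodes and -0.26 and -0.26 with equal weights. Per 100 macrophage reference UMIs it was 0.0332 and 0.0675, again by construction.

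Genes above both comparison sets numbered 2 with stricter thresholds, without top doublet scores and with the thinned rule, and 0 with looser thresholds, without the deepest barcodes, with equal weights and at 2-fold. Genes below both numbered 1 with stricter thresholds, the thinned rule and without the deepest barcodes, and 0 with looser thresholds, equal weights and at 2-fold. Genes higher by diet numbered 100 with the thinned rule, 86 per T cell reference UMI, 98 per macrophage reference UMI and 17 at 2-fold. Genes lower by diet numbered 24 with looser thresholds, 81 with the thinned rule, 25 per macrophage reference UMI and 6 at 2-fold. Genes above the summed profile numbered 21 with looser thresholds, 7 without the deepest barcodes, 20 with equal weights, 40 against the cleaned T cell set and 0 at 2-fold. Genes below it numbered 8 with stricter thresholds, 33 with looser ones, 11 with the thinned rule, 40 against the cleaned set and 1 at 2-fold. The causes were not tested.

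Some ratios turned round. The ratio to the lower comparison set was 1.13 for Errfi1 and 1.03 for Slpi with stricter thresholds. With looser thresholds it was 1.12 for Il31ra, 1.02 for Raph1, 1.09 for Errfi1 and 1.02 for Slpi, and the diet ratio of Gzmd was 1.07. With the thinned rule it was 1.24 for Nedd4, 1.06 for Pvt1, 1.06 for Raph1, 1.20 for Errfi1 and 2.70 for Slpi, the diet ratio of Cxcl3 was 2.0, and the cytotoxic list stood at 1.06 times the sum under sitagliptin. With equal weights it was 1.15 for Inhba, 1.02 for Pvt1, 1.09 for Raph1 and 1.12 for Errfi1. Against the cleaned set it was 8.15 for Inhba, 1.09 for Raph1, 1.54 for Errfi1 and 9.84 for Slpi. The summed MHC class II and interferon gamma lists were above 1 against both the summed profile and macrophage barcodes in each alternative run.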

Other observations

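Plasma cell RNA appeared in a few barcodes with both RNAs. Jchain, the joining chain of secreted antibodies, had 46 UMIs in 11 barcodes under sitagliptin, 34 of them in 1 barcode, and 1 UMI in the control library. Mzb1, a chaperone of antibody-secreting cells, had 35 UMIs in 2 barcodes under sitagliptin, 29 of them in 1, and 4 UMIs in 3 barcodes in the control library. Both belong to the B and plasma cell list and were picked after their values were seen. Ear2, a ribonuclease gene of some macrophages and eosinophils in mice, had 22.7 CPM under sitagliptin and 4.04 CPM in the control library, the same direction as Retnla.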
